A study of Homo sapiens with 8 samples.

Results

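The 9 genes described here encode the enzymes that carry squalene to cholesterol, namely SQLE, LSS, CYP51A1, TM7SF2, MSMO1, NSDHL, EBP, SC5D and DHCR7. They were chosen by symbol, with the row of the highest mean kept for each, from the 60332 genes of the expression table. The choice was made with their change in eKD2 cells known, so that change is given below as a description, without a test. All 9 were among the 15175 genes that passed the filter on low values.

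The RNA came from cultures of SK-N-MC and RD-ES, both lines of Ewing sarcoma, a tumour driven by an EWSR1::FLI1 fusion. The eKD2 cells of each line carried a lentivirus with dCas9-KRAB, a Cas9 without cutting activity joined to a repressor domain, aimed by a guide RNA at the GGAA repeat enhancer of LOXHD1. The control cells of each line received lenti-dCas9-KRAB without that guide (labelled empty), so by the labels the repressor and the puromycin selection were shared by all groups, although the study's text speaks of parental cells for this comparison. Each of the 4 groups had 2 libraries, made from selected pools of cells and not from single clones. The study's methods call the 2 libraries of a condition biological duplicates. The SD below measure the spread between the 2 libraries of a group. The SE come from limma, with 1 spread for each gene shared over all 4 groups. A gene's SE is therefore the same in both lines and takes in the spread of both. LOXHD1, the targeted gene, stood at 21.4 and 21.2 FPKM in the RD-ES controls, against 1.04 and 1.02 FPKM once the guide was present. In SK-N-MC it stood at 159 and 169 FPKM in the controls, against 11 and 12.0 FPKM. It fell in both lines by limma, with log2 changes of -3.46 in RD-ES (adjusted p = 1.1e-04) and -3.73 in SK-N-MC (adjusted p = 3.7e-05), and the RD-ES call was lost in a fit of that line alone (adjusted p = 0.0595, range over the alternatives 4.5e-05 to 0.0595). FPKM counts fragments per kilobase of transcript relative to the mapped reads, so levels of different genes can be compared. In such pools, fewer cells expressing a gene and less of its RNA per cell cannot be told apart.

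Read totals were estimated from the smallest steps of the FPKM values, since the table holds no counts. The estimates ran from about 7470000 reads in RD-ES eKD2 replicate 1 to 30000000 reads in SK-N-MC control replicate 1. At these totals the level of TM7SF2 rested on about 122 to 918 reads a library, and those of the other 8 enzymes on at least 227. CD99, NKX2-2, STEAP1, LIPI and FLI1, markers of Ewing sarcoma, were detected in all 8 libraries, while NR0B1 reached only 2.38 to 3.84 FPKM in RD-ES against 51.0 to 59.6 FPKM in SK-N-MC. Of the 6 markers of other cell types, MYOG and CD3E were at 0 in every library and DES stayed at or below 0.129 FPKM. PTPRC, a leukocyte marker, was at 19.2 to 22.6 FPKM in the SK-N-MC libraries and at most 0.0173 FPKM in RD-ES, EPCAM was at 2.96 to 4.54 against 0.300 to 0.971 FPKM, and their part in the differences between lines was not tested. CDH1 was at 3.50 FPKM in RD-ES eKD2 replicate 1 and at most 0.168 FPKM in the other 7 libraries.

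Cholesterol is built in the endoplasmic reticulum. The mevalonate pathway ends in squalene, which SQLE and LSS turn into lanosterol, the first sterol, and a series of demethylations, reductions and shifts of a double bond then gives cholesterol. Transcription of most of these genes is raised by SREBP-2, the product of SREBF2, which leaves the endoplasmic reticulum when sterols are scarce and binds promoters next to NF-Y and Sp1. The pathway therefore often moves as a unit in cultured cells.

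The promoters of 4 of the enzymes are shown because they span the range of NF-Y boxes found, from 5 to none. Each runs from 250 bases before to 50 bases after a RefSeq transcript start on GRCh38.p14, is written 5′ to 3′ on the gene's strand, and has CCAAT on either strand in capitals (ATTGG when it lies on the opposite strand). NSDHL has 5 such boxes in chrX:152830813-152831112 on the plus strand, of which the one at -113 and the one at -110 overlap in CCAATTGG. MSMO1 has 4 in chr4:165327419-165327718 (plus strand), EBP has 3 in chrX:48521558-48521857 (plus strand), and CYP51A1 has none in chr7:92134428-92134727 (minus strand).
NSDHL: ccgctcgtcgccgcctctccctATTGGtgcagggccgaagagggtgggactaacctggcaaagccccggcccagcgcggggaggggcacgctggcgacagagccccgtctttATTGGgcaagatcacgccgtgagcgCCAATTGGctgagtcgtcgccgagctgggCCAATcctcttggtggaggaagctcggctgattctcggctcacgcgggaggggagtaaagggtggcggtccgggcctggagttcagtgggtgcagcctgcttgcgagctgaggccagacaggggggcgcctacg
MSMO1: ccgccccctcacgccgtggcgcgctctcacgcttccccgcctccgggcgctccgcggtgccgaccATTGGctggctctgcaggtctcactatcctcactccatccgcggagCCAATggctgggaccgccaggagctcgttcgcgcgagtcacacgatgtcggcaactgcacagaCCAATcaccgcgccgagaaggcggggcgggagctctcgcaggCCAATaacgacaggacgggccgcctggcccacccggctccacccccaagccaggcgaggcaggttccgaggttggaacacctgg
EBP: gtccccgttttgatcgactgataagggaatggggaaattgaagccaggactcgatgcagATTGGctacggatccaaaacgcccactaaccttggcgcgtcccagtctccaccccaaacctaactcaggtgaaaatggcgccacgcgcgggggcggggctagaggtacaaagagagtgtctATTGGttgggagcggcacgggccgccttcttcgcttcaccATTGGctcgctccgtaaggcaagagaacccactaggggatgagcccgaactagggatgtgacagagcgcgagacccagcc
CYP51A1: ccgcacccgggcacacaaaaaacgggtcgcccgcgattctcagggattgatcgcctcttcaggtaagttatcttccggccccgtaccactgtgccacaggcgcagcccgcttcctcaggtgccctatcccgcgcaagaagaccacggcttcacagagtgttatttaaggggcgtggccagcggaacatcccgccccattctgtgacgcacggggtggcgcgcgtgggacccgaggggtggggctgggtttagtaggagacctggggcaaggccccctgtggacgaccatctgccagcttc

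A promoter was found for 8 of the 9 enzymes, SQLE being the exception, among 35116 promoters of 27305 symbols. CCAAT, the NF-Y box, was in 7 of the 8 (all but CYP51A1), against 39.7% of all symbols. GGGCGG, the core of Sp1 sites, was also in 7 of the 8 (all but NSDHL), against 48.3% of symbols. CACGTG, an E-box, was in 2 (LSS and SC5D), against 8.77%. TCACNCCAC, a strict form of the sterol regulatory element, was in none of the 8 and in 1.39% of symbols. All 4 motifs were searched on both strands, and a match or its absence says only what letters stand in these windows.

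In control cells the 9 transcripts covered a 5.70-fold range of mean FPKM in RD-ES and a 4.78-fold range in SK-N-MC. The order in RD-ES was EBP, SC5D, LSS, DHCR7, SQLE, CYP51A1, NSDHL, MSMO1 and TM7SF2, and 3 of the 8 neighbouring pairs overlapped between libraries (SC5D with LSS, LSS with DHCR7, and NSDHL with MSMO1). The order in SK-N-MC was SQLE, EBP, MSMO1, DHCR7, LSS, CYP51A1, SC5D, TM7SF2 and NSDHL, with no overlapping pair. Against the genes tested these were middling to high levels, from above 53.3% of genes (NSDHL in SK-N-MC) to above 89.4% (EBP in RD-ES). The summed FPKM of the 9 enzymes was nearly equal in the controls of both lines, at 357 and 373 in RD-ES and 373 and 383 in SK-N-MC. In eKD2 cells the sum was 311 and 307 in RD-ES and 257 and 249 in SK-N-MC, below the controls of the same line in each case. EBP held 22.3% to 24.2% of the sum in RD-ES libraries, and SQLE held 19.0% to 20.9% in SK-N-MC libraries.

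**Figure D1:**
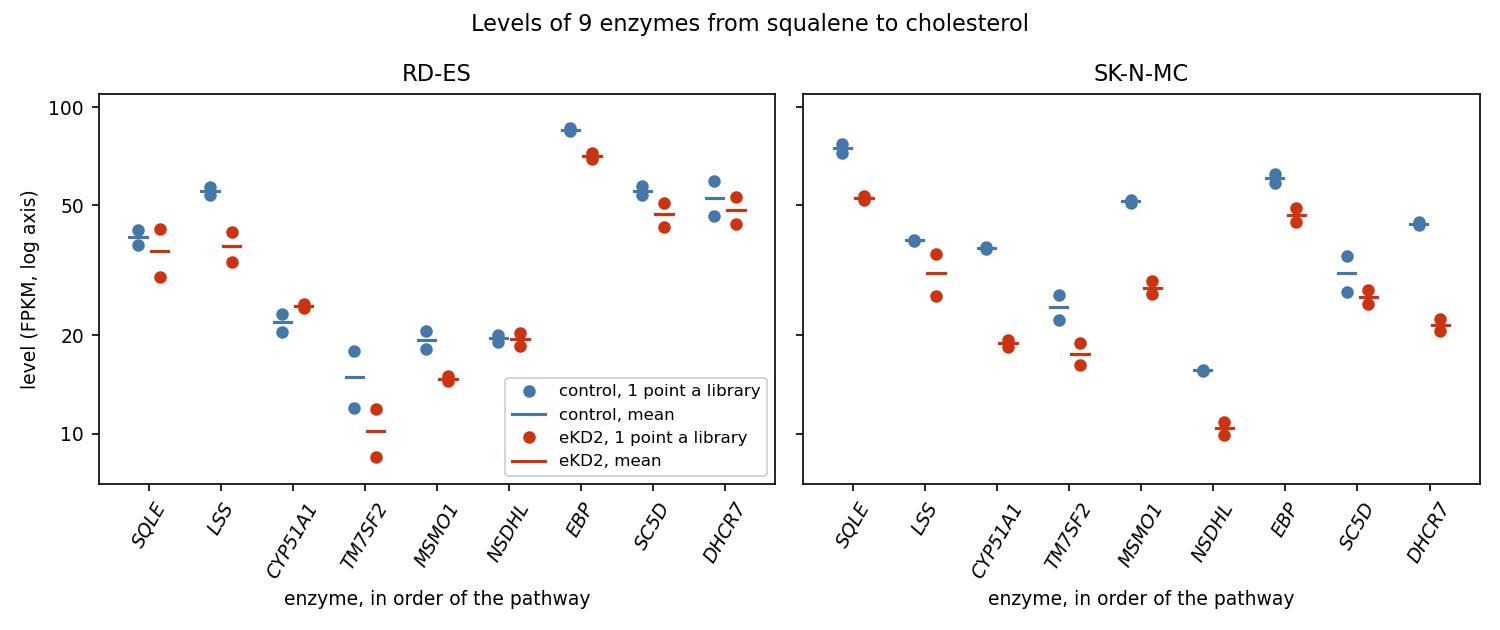
Level of each enzyme in FPKM on a log axis, with RD-ES on the left and SK-N-MC on the right, controls in blue and eKD2 in red; points are single libraries (2 a group) and short bars their means. In SK-N-MC the eKD2 points lie below the control points for 8 enzymes and overlap for SC5D, while in RD-ES they lie below for 5, above for CYP51A1 and overlap for SQLE, NSDHL and DHCR7.

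Across the pathway, eKD2 libraries of SK-N-MC lay below both controls for 8 of the 9 enzymes, and eKD2 libraries of RD-ES for 5 of the 9. Over all genes tested, 25.1% in SK-N-MC and 15.1% in RD-ES had both eKD2 libraries below both controls. CYP51A1 was the only enzyme with both eKD2 libraries above both controls, in RD-ES, where 24.2% of all genes were so placed. Nothing is read from these counts, since the enzymes were chosen on this contrast.

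The median log2 change of the 9 enzymes was -0.50 in SK-N-MC, where the median of all genes was -0.0049, and -0.24 in RD-ES, where it was 0.031. All log2 changes are of FPKM + 1, which understates the change of low genes. The sign of the change was below 0 for 9 of 9 enzymes in SK-N-MC in every alternative run. RD-ES had 8 of 9 below 0, but only 6 without control replicate 2 or without eKD2 replicate 2, and 7 once eKD2 replicate 1 was left out. The comparisons within each line share no library, but each shares its controls with the comparison of the lines given further on. With 2 libraries against 2, an exact two-sided permutation test cannot go below p = 0.333 for a single gene.

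SQLE, squalene monooxygenase, adds the oxygen that opens the sterol branch and is a point of flux control. Its level was 77.1 and 72.5 FPKM in the SK-N-MC controls and 53.5 and 52.0 FPKM in eKD2. The means were 74.8 ± 3.24 and 52.7 ± 1.08 FPKM (SD, n = 2 each), 29.5% lower in eKD2, a log2 change of -0.50 (SE 0.156). The groups did not overlap, and SQLE was the most abundant of the 9 in both groups of this line. In RD-ES the controls were at 37.9 and 42.0 FPKM and eKD2 at 42.2 and 30.1 FPKM, so the groups overlapped. Its log2 change there, -0.16 (SE 0.156), became 0.079 when eKD2 replicate 2 was left out.

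LSS (chr21:47604993-47648738, minus strand, an interval in the table that also covers 3 other genes; this and the following positions are on GRCh37) closes squalene epoxide into lanosterol. It was the enzyme with the lowest log2 change in RD-ES. Controls there were at 57.0 and 53.9 FPKM and eKD2 at 33.5 and 41.6 FPKM, with means of 55.4 ± 2.22 and 37.5 ± 5.71 FPKM (SD, n = 2), 32.3% lower. In SK-N-MC the controls stood at 38.9 and 39.2 FPKM and eKD2 at 35.5 and 26.4 FPKM. The groups did not overlap in either line, but the eKD2 libraries of SK-N-MC lay far apart. The log2 change was -0.56 (SE 0.160) in RD-ES and -0.34 (SE 0.160) in SK-N-MC, the latter -0.13 without eKD2 replicate 2 and -0.55 without eKD2 replicate 1.

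CYP51A1 (chr7:91741465-91810039, minus strand, an interval shared with 2 other genes) removes the first methyl group from lanosterol and is the target that azole drugs hit in fungi. It was the step at which the lines differed in sign. In SK-N-MC the controls were at 36.7 and 37.2 FPKM and eKD2 at 19.4 and 18.5 FPKM, with means of 37.0 ± 0.366 and 18.9 ± 0.643 FPKM (SD, n = 2), 48.8% lower. In RD-ES the controls were at 20.5 and 23.3 FPKM and eKD2 at 24.3 and 25.0 FPKM, a ratio of means of 1.12. The log2 change was -0.93 for SK-N-MC and 0.16 for RD-ES (SE 0.0835 each). AKAP9, a gene on the opposite strand, shares 108 exon bases with it and was at 17.8 to 33.8 FPKM, and without strand the reads in those bases cannot be told apart.

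TM7SF2 (chr11:64851695-64883856, plus strand, an interval shared with 4 other genes) reduces the double bond that CYP51A1 leaves behind. It was the least abundant of the 9 in both groups of RD-ES, and its replicates were far apart there. RD-ES controls were at 12.0 and 18.0 FPKM and eKD2 at 11.9 and 8.46 FPKM, with log2 change -0.51 (SE 0.233). This value was -0.23 without control replicate 2 and -0.78 without control replicate 1. In SK-N-MC the controls were at 22.2 and 26.5 FPKM and eKD2 at 16.2 and 18.9 FPKM, 28.0% lower in the mean, a log2 change of -0.45 (SE 0.233). The gene shares 18 exon bases with VPS51, which was at 66.5 to 130 FPKM.

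MSMO1 (chr4:166248775-166264312, plus strand), the oxidase that attacks the remaining pair of methyl groups, was lower in eKD2 of both lines, with no overlap. In SK-N-MC the controls were at 51.9 and 50.9 FPKM and eKD2 at 29.3 and 26.7 FPKM, 45.6% lower in the mean. In RD-ES the controls were at 20.7 and 18.1 FPKM and eKD2 at 15.0 and 14.5 FPKM, 24.2% lower. The log2 change was -0.86 in SK-N-MC and -0.37 in RD-ES (SE 0.0905 each), and it stayed between -0.92 and -0.79 and between -0.46 and -0.28 when single libraries were left out. NSDHL (chrX:151999511-152038273, plus strand), the dehydrogenase that acts next and is mutated in CHILD syndrome, lay apart between the groups in SK-N-MC and overlapped in RD-ES. Its SK-N-MC controls were at 15.7 and 15.6 FPKM and eKD2 at 10.9 and 9.94 FPKM, 33.5% lower, a log2 change of -0.55 (SE 0.0856). In RD-ES the controls were at 19.1 and 20.1 FPKM and eKD2 at 20.4 and 18.6 FPKM, so the groups overlapped and the log2 change was -0.0093 (SE 0.0856).

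EBP (chrX:48379546-48387104, plus strand), the isomerase that shifts the ring double bond, is named for its binding of emopamil. It was lower in eKD2 of both lines, with no overlap. The RD-ES controls were at 86.5 and 84.2 FPKM and eKD2 at 69.6 and 72.3 FPKM, 16.9% lower in the mean. The SK-N-MC controls were at 58.7 and 62.5 FPKM and eKD2 at 44.5 and 49.0 FPKM, 22.9% lower. The log2 change was -0.26 in RD-ES and -0.37 for SK-N-MC (SE 0.0742 each). After scaling each library to the median of its genes the RD-ES value was -0.34.

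SC5D (chr11:121163162-121179403, plus strand), which sets a further double bond with the help of cytochrome b5, showed the smallest change in SK-N-MC. Controls of that line were at 27.2 and 34.9 FPKM and eKD2 at 27.6 and 24.9 FPKM, so the groups overlapped. In RD-ES the controls were at 57.3 and 53.7 FPKM and eKD2 at 50.9 and 43.0 FPKM, without overlap. The log2 change was -0.23 in SK-N-MC and -0.24 in RD-ES (SE 0.143 each), and both moved with single libraries. The SK-N-MC value was -0.40 without control replicate 1 and -0.052 without control replicate 2, and the RD-ES value was -0.36 without eKD2 replicate 1 and -0.12 when eKD2 replicate 2 was left out.

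DHCR7 (chr11:71139239-71163914, minus strand, an interval shared with 1 other gene) reduces dehydrocholesterol to cholesterol and is the enzyme lost in Smith-Lemli-Opitz syndrome. It had the lowest log2 change of the 9 in SK-N-MC, where the controls were at 44.6 and 43.4 FPKM and eKD2 at 20.6 and 22.5 FPKM. The means, 44.0 ± 0.841 and 21.6 ± 1.36 FPKM (SD, n = 2), differed by 51.0%, a log2 change of -0.998 (SE 0.146). In RD-ES the controls were at 46.2 and 59.3 FPKM and eKD2 at 43.8 and 53.1 FPKM, which overlapped. The log2 change in RD-ES was -0.12 (SE 0.146), and it was 0.059 without control replicate 2.

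**Figure D2:**
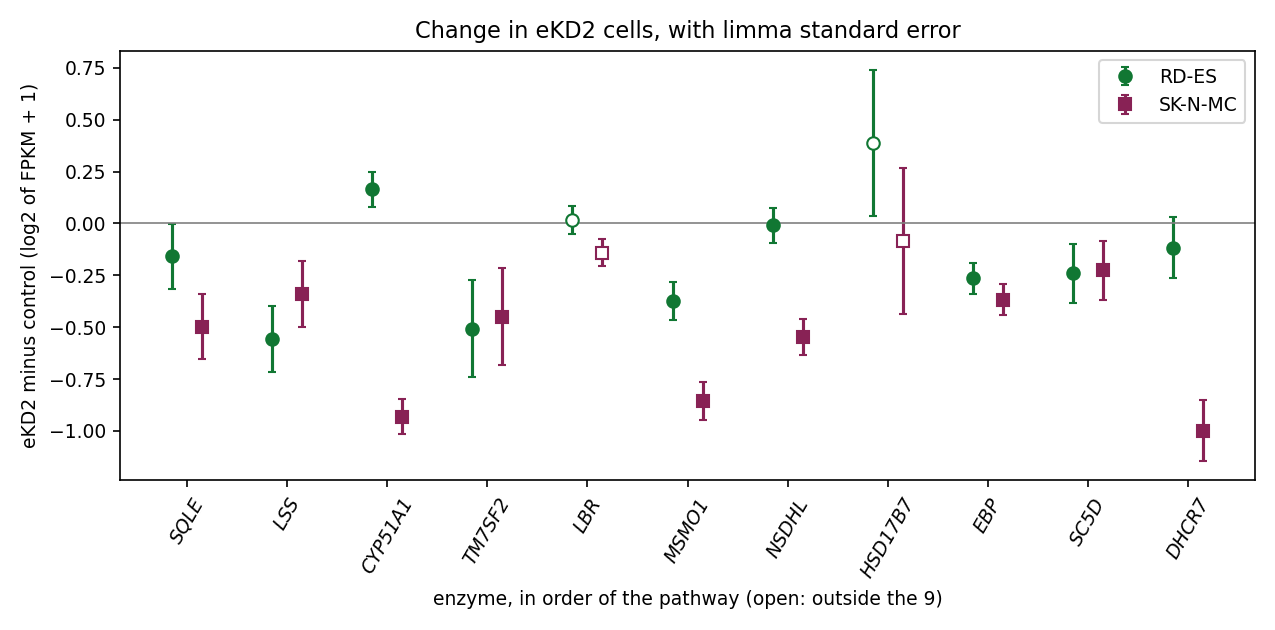
Change in eKD2 cells, as eKD2 minus control on the log2(FPKM + 1) scale, for 11 enzymes of the route in pathway order, with RD-ES as green circles and SK-N-MC as purple squares; bars are limma standard errors and open symbols are enzymes outside the 9. SK-N-MC runs from -0.23 (SC5D) to -0.998 (DHCR7) among the 9, and RD-ES from -0.56 (LSS) to 0.16 (CYP51A1).

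Set side by side, the log2 change of SK-N-MC less the log2 change of RD-ES was most negative for CYP51A1, at -1.10 (SE 0.118), followed by DHCR7 at -0.88 (SE 0.206), NSDHL at -0.54 (SE 0.121) and MSMO1 at -0.48 (SE 0.128). It was near 0 for SC5D at 0.015 (SE 0.202), TM7SF2 at 0.057 (SE 0.329) and EBP at -0.10 (SE 0.105). SQLE stood between them at -0.34 (SE 0.221), and LSS had the highest value, 0.22 (SE 0.227), which is within its error. These differences use the contrast on which the enzymes were chosen and were not tested.

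Beside the 9, LBR and HSD17B7 act on the same route. LBR, the lamin B receptor, which shares the reaction of TM7SF2, was at 130 to 139 FPKM in all 4 RD-ES libraries and at 75.7 to 87.2 FPKM in SK-N-MC. Its mean level was thus 9.0 times that of TM7SF2 in the RD-ES controls and 3.47 times in the SK-N-MC controls. Its log2 change in eKD2 was 0.016 in RD-ES and -0.14 for SK-N-MC (SE 0.0658 each), neither past the adjusted threshold of 0.05. HSD17B7, the reductase that acts after NSDHL, had the lowest mean of these 11 enzymes in each group, at 5.35 to 12.2 FPKM over the libraries, and did not pass the test in either line. The table lists its pseudogenes HSD17B7P1 and HSD17B7P2 at no more than 0.0743 and 0.555 FPKM, and how reads were divided among these copies was not tested.

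The difference between the lines in control cells is not the contrast on which the enzymes were chosen, and it was tested, but its control libraries are those of the eKD2 comparisons and so it is not wholly independent of the choice. Of the 9, 4 were higher and 4 lower in SK-N-MC than in RD-ES at an adjusted p under 0.05 (limma), where 57.8% of all genes tested were called, 31.4% higher and 26.4% lower. All 9 had control groups that did not overlap between the lines, as did 79.8% of genes. The median line difference of the 9 was -0.25, beside 0.065 over all genes.

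MSMO1 was higher in SK-N-MC by 1.36 on the log2 scale (SE 0.0905, limma adjusted p = 8.7e-05), SQLE by 0.89 (SE 0.156, adjusted p = 0.0038), CYP51A1 by 0.73 (SE 0.0835, adjusted p = 6.7e-04) and TM7SF2 by 0.69 (SE 0.233, adjusted p = 0.044). SC5D was lower, with a difference of -0.83 (SE 0.143, limma adjusted p = 0.0035), and so were EBP at -0.49 (SE 0.0742, adjusted p = 0.0021), LSS at -0.49 (SE 0.160, adjusted p = 0.038) and NSDHL at -0.31 (SE 0.0856, adjusted p = 0.023). DHCR7 did not pass (-0.25, SE 0.146, limma adjusted p = 0.19), with levels of 46.2 and 59.3 FPKM in RD-ES and 44.6 and 43.4 FPKM in SK-N-MC. SQLE, CYP51A1, MSMO1, EBP and SC5D passed under all 15 alternatives, while TM7SF2 was lost in 11 (limma adjusted p up to 0.21), LSS in 6 (up to 0.15) and NSDHL in 4 (up to 0.095). Leaving out any of the 4 control libraries ended the calls of LSS (values -0.54 to -0.45) and NSDHL (-0.34 to -0.27). TM7SF2 lost its call without RD-ES control replicate 1 (0.41), SK-N-MC control replicate 1 (0.81) or replicate 2 (0.57), or either SK-N-MC eKD2 library (0.69). DHCR7 passed after median scaling, which moved the median of all genes by -0.107. LBR was lower in SK-N-MC as well (-0.66, SE 0.0658, limma adjusted p = 3.8e-04).

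**Figure D3:**
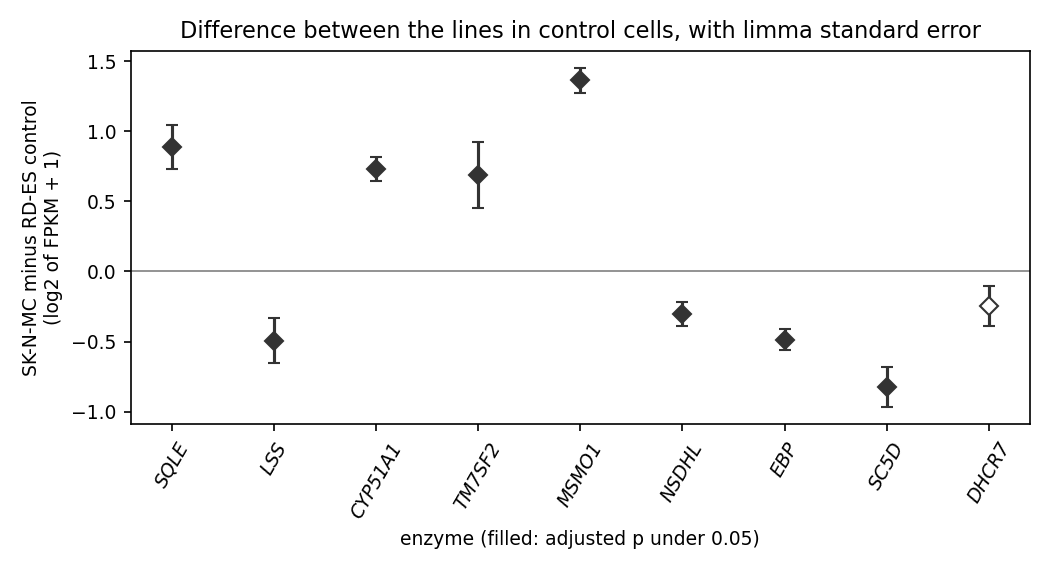
Difference between SK-N-MC and RD-ES control cells for each enzyme on the log2(FPKM + 1) scale, with limma standard errors; filled diamonds have an adjusted p under 0.05. MSMO1 lies highest at 1.36 and SC5D lowest at -0.83, and DHCR7 is the open symbol at -0.25.

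Upstream, the mevalonate pathway was measured by 10 genes. This list and those that follow were made with earlier results of these data known, so their calls are given as a description. By limma with Benjamini-Hochberg adjustment over all genes, 4 of the 10 fell in the eKD2 cells of SK-N-MC and none rose, where 0.323% of all genes passed and 0.171% fell, and the median log2 change was -0.59. In RD-ES, where 0.343% of all genes passed, none did (0 higher and 0 lower at an unadjusted p under 0.05) and the median was -0.047. HMGCS1, which makes the HMG-CoA that is then reduced to mevalonate, went from 70.1 and 64.9 FPKM to 26.1 and 23.7 FPKM in SK-N-MC (log2 change -1.40, SE 0.143, limma adjusted p = 0.032, range over the alternatives 0.0195 to 0.210). FDFT1, squalene synthase and thus the step just before SQLE, went from 186 and 203 FPKM to 90.9 and 87.1 FPKM (-1.12, SE 0.114, limma adjusted p = 0.032, range 0.0298 to 0.182). ACAT2, an acetoacetyl-CoA thiolase, changed by -1.01 (SE 0.0739, limma adjusted p = 0.0084, range 0.00668 to 0.175) and FDPS, which makes farnesyl diphosphate, by -0.70 (SE 0.0753, limma adjusted p = 0.034, range 0.0202 to 0.238). Of the 15 alternatives, ACAT2 lost its call in 4, HMGCS1 in 9, and FDPS and FDFT1 in 11 each. A single library left out was enough for this, either RD-ES control for ACAT2, either RD-ES control or any SK-N-MC library for HMGCS1, and any of the 8 for FDPS and FDFT1, with log2 changes no nearer to 0 than -0.95, -1.34, -0.63 and -1.06 in that order. In the RD-ES libraries FDFT1 was at 85.1 and 74.5 FPKM in controls and at 92.0 and 76.3 FPKM in eKD2, which overlapped.

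Of the 7 genes that control SREBP, 1 fell in SK-N-MC (0.171% of all genes) and none passed in RD-ES, with medians of -0.098 and -0.046 (0 in RD-ES at an unadjusted p under 0.05). The gene was INSIG1, a sterol-regulated anchor of the SREBP complex, at 13.7 and 13.7 FPKM in controls and 5.27 and 4.99 FPKM in eKD2 (log2 change -1.26, SE 0.144, limma adjusted p = 0.040). Its call was lost under all 15 alternatives (adjusted p 0.052 to 0.259). SREBF2 itself was at 91.8 and 101 FPKM in SK-N-MC controls and 60.5 and 69.7 FPKM in eKD2, did not overlap, and did not pass (-0.56, SE 0.103, limma adjusted p = 0.15). The RD-ES controls held 41.2 and 42.4 FPKM and the eKD2 libraries 34.9 and 39.6 FPKM, also without overlap or a call. Of 4 genes of uptake and trafficking, none passed limma's adjusted test in either line, with medians of -0.36 in SK-N-MC and -0.0040 in RD-ES. At an unadjusted p under 0.05, 2 of them were lower and 1 higher in SK-N-MC, where 7.29% of all genes were lower and 5.71% higher, and 0 in RD-ES.

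None of the 5 partners of the enzymes passed limma's adjusted test in either line (at an unadjusted p under 0.05, 2 were lower in RD-ES, as were 3.79% of all genes, and 1 in SK-N-MC, as were 7.29%), and their medians were -0.18 in SK-N-MC and -0.11 in RD-ES. Among them, ERG28, a scaffold of the demethylating enzymes, was at 16.2 and 16.8 FPKM in SK-N-MC controls and 12.5 and 12.3 FPKM in eKD2, and POR, the reductase that feeds electrons to SQLE and CYP51A1, overlapped in both lines. Of the 5 genes for efflux, storage and turnover, ABCA1 and ABCG1 were under the filter, and the other 3 lay between -0.099 and 0.098 on the log2 scale and did not pass in either line (0 at an unadjusted p under 0.05). In RD-ES none of these lists had a gene past the adjusted threshold. The lists were made with earlier results of these data known, and whether they changed more than other genes was not tested.

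**Figure D4:**
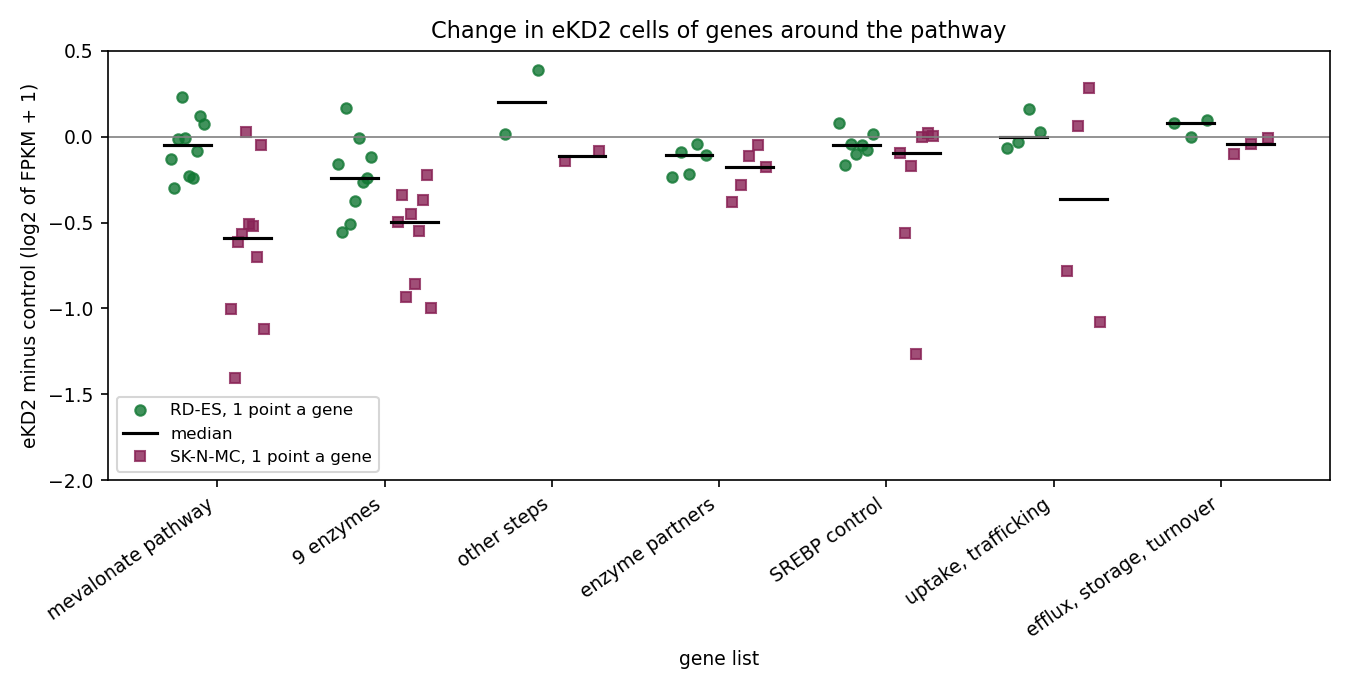
Change in eKD2 cells on the log2(FPKM + 1) scale for 7 gene lists around cholesterol synthesis, with 1 point a gene, RD-ES as green circles, SK-N-MC as purple squares and black bars at the medians. The SK-N-MC medians of the mevalonate pathway (-0.59), the 9 enzymes (-0.50) and uptake (-0.36) lie lowest, and the RD-ES medians lie between -0.24 and 0.20.

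In control cells 6 of the 10 mevalonate genes were higher in SK-N-MC and none lower, beside 31.4% and 26.4% of all genes, among them HMGCS1 (1.54, SE 0.143, limma adjusted p = 3.0e-04) and FDFT1 (1.28, SE 0.114, adjusted p = 2.6e-04). Of the 7 genes that control SREBP, 3 were higher in SK-N-MC and 1 was lower, beside those same shares of all genes. The lower one was MBTPS1 (-0.64, SE 0.0774, limma adjusted p = 8.7e-04). Among the higher ones were SREBF2 (1.18, SE 0.103, limma adjusted p = 2.4e-04) and INSIG1 (1.83, SE 0.144, adjusted p = 1.6e-04). In the 9 enzymes a higher level in SK-N-MC was seen for SQLE, CYP51A1, TM7SF2 and MSMO1 but not for the others. Of the 5 partners, 3 were lower in SK-N-MC and 1 was higher, beside 26.4% and 31.4% of all genes. The higher one was ERG28 (0.45, SE 0.0935, limma adjusted p = 0.0077). PGRMC1 (-0.54, SE 0.0606, limma adjusted p = 6.3e-04) and CYB5B (-0.33, SE 0.0856, limma adjusted p = 0.018) were among the lower ones. The CYB5B call was lost in a fit of the compared groups alone and without control replicate 1 of either line. Among the partners, POR was lower in SK-N-MC (-0.92, SE 0.217, limma adjusted p = 0.012), a call lost without control replicate 1 of either line (range over the alternatives 0.00742 to 0.076).

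The mean of the 9 enzymes, centred on each line, was 0.065 and 0.16 in the RD-ES controls and -0.078 and -0.15 in RD-ES eKD2 (log2). In SK-N-MC it was 0.26 and 0.32 in the controls and -0.27 and -0.31 in eKD2. As a description over the 8 libraries, each enzyme followed this mean with a Pearson r from 0.676 (LSS) to 0.963 (MSMO1), a mean to which it contributes itself. The 5 genes outside the 9 most like it, of 8711 with a mean of at least 10 FPKM, were GRSF1 (r = 0.988), KRT18 (0.984), RPS27L (0.980), SRSF7 (0.980) and EIF2S1 (0.977). Of these, GRSF1 was at 110.8 and 118 FPKM in SK-N-MC controls and 85.1 and 80.5 FPKM in eKD2. Of the mevalonate genes, HMGCS1 ranked 20 and ACAT2 32. The libraries share their lines and groups, so these r values carry no test.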

How the data were processed

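RNA of 8 libraries was measured by RNA-seq of poly-A selected, unstranded libraries with single reads of 75 bases. The authors aligned reads with STAR to GRCh37 and used Cuffnorm to make the deposited values, which are FPKM per gene on annotation release 27, scaled between libraries by the authors. Counts were not analysed here, so a count test was not possible, and FPKM keep depth only in their smallest steps.

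From these values, the 15175 genes whose values averaged 1 FPKM or more were fitted with limma 3.58.1 in R 4.3.3 on log2(FPKM + 1), with 4 groups in a single fit, a mean-variance trend and Benjamini-Hochberg adjustment over all genes at 0.05. SE are those of limma. The script was tested on simulated data. Read totals were estimated from the FPKM value of a single read, which 23.2% to 30.1% of low genes shared, and are approximate. Genes named were the 9 enzymes, LBR, HSD17B7, every gene of the pathway lists that passed, LOXHD1, and the 5 genes most like the enzymes' mean; values of SREBF2, ERG28 and the cell type markers were added after they had been seen. The members and lists were chosen with earlier results of these data known. Whether replicate numbers pair libraries is not known, and no block was used in the main fit. Promoters were read from RefSeq, some planned genes are not reported here, and a planned comparison of protein sequences was not made. The alternatives were another pseudocount (0.1), no filter, median scaling, quantile normalization, no trend, separate fits, a replicate block and leaving out each library. No column of another series was in the table.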

Additional observations from a re-analysis of the deposited data

Results flagged for a closer look

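CYP51A1 was set apart because its eKD2 libraries lay above both controls in RD-ES and below both in SK-N-MC. The log2 change of SK-N-MC less the log2 change of RD-ES was -1.10, and this difference was not tested, since the enzyme was chosen on the same contrast. In RD-ES the change stayed above 0 in every fit that left out a library, between 0.078 and 0.25, and in SK-N-MC it stayed between -0.96 and -0.90.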

How the results depend on the processing

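Under another pseudocount or scaling, 53 of 54 eKD2 changes of the 9 enzymes moved by less than the spread between replicates, and EBP in RD-ES moved by more after median scaling. Leaving out a library turned the RD-ES change above 0 for SQLE (0.079 without eKD2 replicate 2), NSDHL (0.026 without control replicate 2, 0.054 without eKD2 replicate 2) and DHCR7 (0.059 without control replicate 2, 0.020 without eKD2 replicate 1), and turned none in SK-N-MC. Of 135 line differences 113 kept their side of the threshold and none changed sign. The genes called in RD-ES (52) numbered 79 without the filter, 1 in a fit of that line alone, 11 under the replicate block and 27 to 71 when a library was left out. Those in SK-N-MC (49) numbered 118, 13, 5 and 12 to 76 in the same order, and the line comparison (8777) gave 6926 to 9059 when a library was left out. Across genes, the deviations of same-numbered libraries from their group means correlated by 0.027 to 0.056, which does not settle whether the numbers mark pairs. The median change of the enzymes in RD-ES (-0.24) was -0.31 after median scaling and -0.36 to -0.23 when a library was left out, that in SK-N-MC (-0.50) -0.55 to -0.49, and the median line difference (-0.25) -0.39 after median scaling and -0.34 to -0.070. The share of genes higher in RD-ES eKD2 at an unadjusted p under 0.05 was 69.1% as deposited, 41.2% after median scaling and 53.7% after quantile normalization. In the eKD2 comparisons the single-line fit and the replicate block had 2 residual degrees of freedom, fits without a library 3, and the main fit 4. The cause of these changes with the processing was not tested. With 2 libraries a group, small changes of the enzymes could not be resolved. The SE of the eKD2 change was largest for HSD17B7 (0.352) and TM7SF2 (0.233), and lay between 0.143 and 0.160 for SQLE, LSS, SC5D and DHCR7. HSD17B7 and TM7SF2 also had the lowest minimum of estimated reads in a library, about 92 and 122. Depth is known only approximately, and the part of read number in these errors was not tested.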
